A study of Mus musculus with 6 samples.

Results

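The 10 genes described here encode T cell costimulatory molecules: the receptors Cd28, Icos, Cd226, Cd27, Tnfrsf1b, Tnfrsf9, Tnfrsf4 and Tnfrsf18, and the TNF family ligands Cd40lg and Tnfsf8. They were chosen by symbol, with earlier results of these data known, and all 10 are among the 14051 genes of the table. A T cell that recognizes antigen through its receptor needs a second signal to expand and survive, and the CD28 family and the TNF receptor superfamily supply most of it. CD28 and ICOS bind ligands on antigen-presenting cells and recruit PI3K, whereas CD27, OX40, 4-1BB and GITR bind TNF family ligands, recruit TRAF adaptors and activate NF-kB. CD40 ligand and CD30 ligand run in the other direction, from the T cell to CD40 and CD30 on its partner cells, and CD40 ligand is best known from activated CD4+ T cells.

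The RNA came from donor CD8+ T cells of a mouse haploidentical BMT model, in which B6D2F1 recipients received total body irradiation and then purified CD3+ T cells of B6.CD45.1+ donors. Of 6 libraries, 3 were labelled GC-treated (dexamethasone at 5 mg/kg/day i.p. from day -1 to day 5) and 3 were labelled vehicle-treated (methyl β-cyclodextrin in PBS over the same days). On day 5 an i.v. anti-CD45 antibody marked cells inside vessels, and the donor CD8+ T cells it had marked were purified by sorting, each biological group being a pool of the BM of 2 to 3 mice. Whether each library had a pool of its own is unknown from the sources used here, so p-values measure only the spread between these libraries, which may be partly technical, and in bulk RNA fewer cells of a type cannot be told apart from less RNA per cell. The labels give no recipient age.

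The libraries labelled GC-treated totalled 67887570 to 76888118 gene reads, and those labelled vehicle-treated 60949593 to 64801008. Genes that define CD8+ T cells were abundant in every library, with Cd8a at normalized counts (reads divided by 1 size factor per library) of 68730 to 93850 under the GC label and 63285 to 84617 under the vehicle label. On the first principal component of the tested genes, which held 37.0% of the variance, GC-treated 1 (-22.7) lay next to vehicle-treated 1 and 2 (-25.1 and -32.0) and apart from GC-treated 2 and 3 (19.1 and 61.8), with vehicle-treated 3 at -1.20. Fkbp5, a well known glucocorticoid-induced gene, had counts of 21148, 16401 and 14780 across GC-treated libraries 1 to 3 and counts of 24889, 32705 and 21271 across vehicle-treated libraries 1 to 3, so its groups did not overlap and it was lower in the GC-treated ones. Dusp1, also known to be induced by glucocorticoids, lay the other way, with 9343, 8495 and 6076 across GC-treated libraries 1 to 3 and 6151, 5872 and 5048 across vehicle-treated libraries 1 to 3, which overlapped. Of 7 tested glucocorticoid response genes, 6 had negative log2 fold changes and only Dusp1 a positive one. Fkbp5 was the only 1 of them whose groups did not overlap. Directions below are those of the labels, and values without each library are given where they matter. Among markers of other cells, 10 neutrophil genes had summed counts of 1877 to 12673 under the GC label. Under the vehicle label they had 471 to 4413, and the groups overlapped. The highest member, Ltf, had 617, 5785 and 2499 across GC-treated libraries 1 to 3. Across vehicle-treated libraries 1 to 3 it had 0, 32.4 and 971. Of the 10 neutrophil genes 8 had positive log2 fold changes, and Elane (-0.39) and Prtn3 (-0.15) had negative ones. By limma 5 of the 10 had an unadjusted p under 0.05, all of them positive, and 0 had an adjusted p under 0.05. These were Ltf (6.02), Mmp8 (5.88), Retnlg (4.36), Lcn2 (2.94) and S100a8 (2.45). Of all tested genes, 2.12% were higher at this unadjusted p, and the log2 fold change of Ltf was the highest. The summed counts of 6 erythroid and megakaryocyte genes (highest member Hba-a1) were 262 to 381 under the GC label. Under the vehicle label they were 444 to 781, so these sums did not overlap and were lower under the GC label. By contrast, the sums overlapped between groups for the 10 CD8 T cell (Gzmb), 4 NK cell (Klre1) and 6 B cell genes (Ighm). So did those for the 10 monocyte and macrophage (C1qb) and 6 dendritic cell genes (Itgax). Each list is named here with its highest member. For monocytes and macrophages the overlap was narrow, at 1793 to 2560 for GC-treated and 2548 to 2768 for vehicle-treated libraries, and 8 of the 10 genes had negative log2 fold changes. Among the dendritic cell genes, Clec9a was at 0 in 5 of the 6 libraries and Flt3 in 2. Itgax, Xcr1, Ccr7 and Zbtb46 were above 0 in every library. Their mean counts were 7892, 609, 729 and 88.4 under the GC label. Under the vehicle label they were 8155, 510, 775 and 84.3.

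The 2 ligands had the lowest means with the GC label relative to vehicle. Cd40lg averaged 93.5 normalized counts with the GC label against 207 with vehicle, and Tnfsf8 averaged 243 against 487. Tnfrsf1b, the abundant TNF receptor 2, stood at 0.879 of its vehicle mean. In these 3 genes every GC-treated library lay below every vehicle-treated one. In the other 7 genes the groups overlapped, with fold changes of the means between 0.855 for Cd28 and 1.14 for Tnfrsf18. No member passed limma's test across all 11649 tested genes at an adjusted p under 0.05, either higher or lower, and neither did any other gene (0% of all tested genes in each direction, with 838 at an unadjusted p under 0.05). By limma's unadjusted p under 0.05, 3 of 10 members were lower in GC-treated libraries and 0 higher, against 7.19% of all tested genes in either direction, 5.07% lower and 2.12% higher. Groups without overlap and lower with the GC label, the pattern of these 3 members, were seen in 6.40% of all tested genes, and groups without overlap in either direction in 12.8%. Log2 fold changes were below 0 in 8 of the 10 members and in 51.5% of all tested genes. After scaling to Cd3d, Cd3e and Cd3g they were below 0 in 9 members and 62.7%. Because the members were chosen with earlier results of these data known, these shares describe the members and do not test them. On the recovered reads, edgeR called 0 genes (708 of 11649 at an unadjusted p under 0.05) and DESeq2 2 (988 of 14034), none of them members, and both put 2 members, Tnfsf8 and Cd40lg, at an unadjusted p under 0.05.

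**Figure D1:**
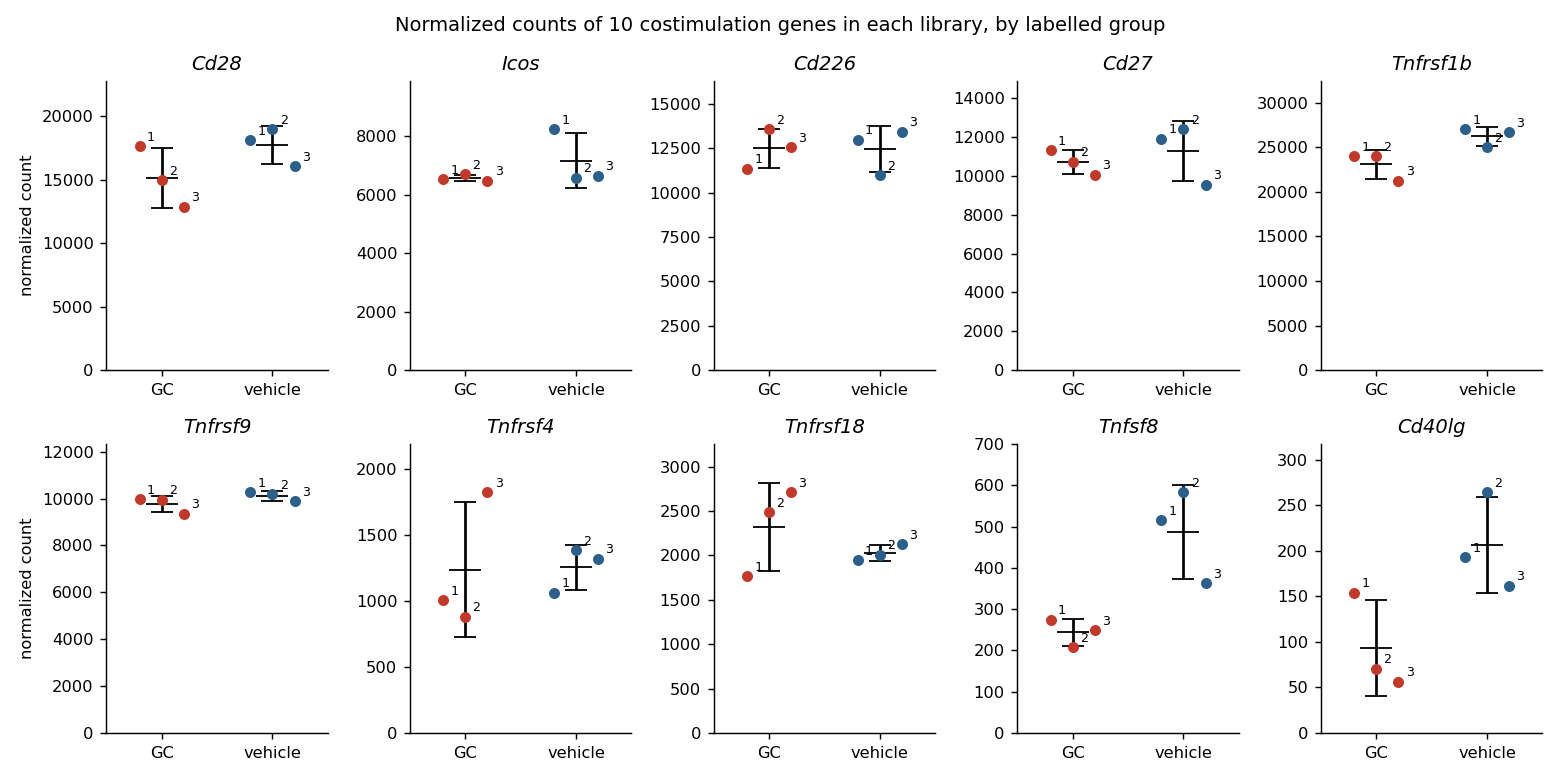
Normalized counts of the 10 genes in each library, by labelled group, GC on the left and vehicle on the right. Each point is 1 library with its replicate number, and each bar shows a group's mean with its SD (n = 3). The groups do not overlap for Tnfrsf1b, Tnfsf8 and Cd40lg, whose highest counts (27029, 584 and 265) are in vehicle-treated libraries.

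Tnfsf8 encodes CD30 ligand, a membrane protein of activated T cells that binds CD30 (Tnfrsf8). Its gene spans 63749542 to 63779592 of chromosome 4 in GRCm39, reverse strand, with no other annotated gene overlapping it. Its normalized counts were 274, 207 and 248 across GC-treated libraries 1 to 3, against 515, 584 and 362 across vehicle-treated libraries 1 to 3. The highest GC-treated count, that of library 1, lay below the lowest vehicle-treated one, that of library 3. The means were 243 ± 33.8 under the GC label and 487 ± 113 under the vehicle label (SD, n = 3 each), a log2 fold change of -0.98 on the log2(normalized count + 1) scale (standard error 0.23, 95% interval -1.50 to -0.46). By limma its p was 0.0021, the 10th smallest of 11649 genes, and its adjusted p was 0.62, while DESeq2 gave an adjusted p of 0.146. Behind these counts stood 209 to 317 reads in GC-treated libraries and 347 to 540 in vehicle-treated ones, and the 95% Poisson interval of GC-treated 1 (245 to 306 in normalized counts) did not reach that of vehicle-treated 3 (325 to 402). Such intervals cover counting error only. The log2 fold change ran from -1.18 without vehicle-treated replicate 3 to -0.83 without vehicle-treated replicate 2. Its receptor gene Tnfrsf8, measured in the same cells, had counts of 130, 64.5 and 100 across GC-treated libraries 1 to 3 and of 129, 181 and 151 across vehicle-treated libraries 1 to 3, which overlapped, with a log2 fold change of -0.68 (adjusted p = 0.62 from limma).

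Cd40lg encodes CD40 ligand, which licenses dendritic cells and drives B cell help through CD40. Its gene spans 56257405 to 56269902 of chromosome X, forward strand, with no other annotated gene overlapping it. Its normalized counts were 154, 70.5 and 56.1 across GC-treated libraries 1 to 3, against 193, 265 and 162 across vehicle-treated libraries 1 to 3. GC-treated 1 lay far above the other libraries of its group and close below vehicle-treated 3. These 2 counts rest on 178 and 155 reads, and their 95% Poisson intervals, 132 to 178 for GC-treated 1 and 137 to 189 for vehicle-treated 3, overlapped, so the gap between the groups was smaller than the counting error of the libraries that border it. The means were 93.5 ± 52.9 under the GC label and 207 ± 52.9 under the vehicle label (SD, n = 3 each), a log2 fold change of -1.24 (standard error 0.40, 95% interval -2.15 to -0.33). By limma the p was 0.013 and the adjusted p 0.62. Leaving out GC-treated replicate 1 gave -1.67, and leaving out GC-treated replicate 3 gave -0.95.

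Because Cd40lg is best known from CD4+ T cells, their markers are given beside it. Of 13 listed CD4 T cell genes, 11 are in the table and 8 were tested, and all 8 had negative log2 fold changes, none at an unadjusted p under 0.05. Their summed counts were 2698 to 3069 in the GC-treated libraries and 2885 to 3446 in the vehicle-treated ones, which overlapped, and the highest member was Izumo1r. Cd4 itself stood at 106, 86.3 and 164 across GC-treated libraries 1 to 3. Across vehicle-treated libraries 1 to 3 it stood at 97.1, 138 and 178, and the groups overlapped. The erythroid genes Hba-a1 and Hba-a2 separated the groups in the direction of both ligands, with log2 fold changes of -0.91 and -1.06. The macrophage gene Cd163 did so too, with 105, 105 and 95.6 across GC-treated libraries 1 to 3 and 340.3, 249.7 and 246 across vehicle-treated libraries 1 to 3 (log2 fold change -1.43, adjusted p = 0.62 from limma). By limma its unadjusted p was 0.00023, smaller than that of Tnfsf8. Mrc1, another macrophage gene, was at -1.30 (adjusted p = 0.62 from limma) with overlapping groups, and by limma its unadjusted p was 0.044. Of the 10 monocyte and macrophage genes, only these 2 had an unadjusted p under 0.05 from limma. Adgre1 (1.32) and Cd14 (0.86) had positive log2 fold changes and the other 8 negative ones. C1qa, C1qb and Fcgr1 were at -0.084, -0.096 and -0.019. The part of these cells, and of the neutrophils whose sums are given above, in the ligand values was not tested.

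**Figure D2:**
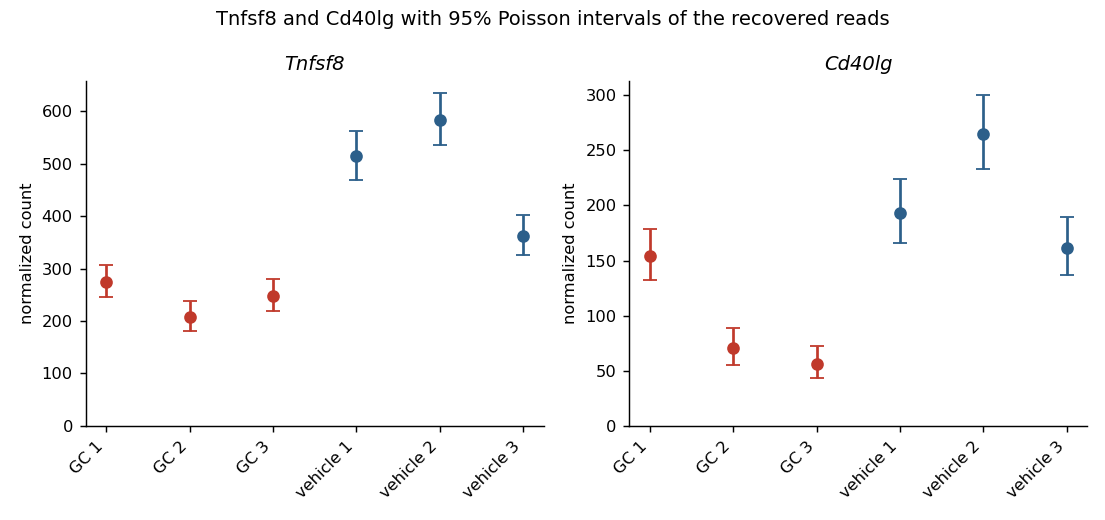
Normalized counts of Tnfsf8 (left panel) and Cd40lg (right panel) in each library, with 95% Poisson intervals of the recovered reads as bars. The intervals of GC-treated 1 and vehicle-treated 3 are apart for Tnfsf8 (upper end 306, lower end 325) and overlap for Cd40lg.

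Both ligands were also set against Cd28 within each library, among 10 ratios computed. Per 100 normalized counts of Cd28 there were 0.875, 0.472 and 0.436 of Cd40lg across GC-treated libraries 1 to 3 and 1.07, 1.40 and 1.01 across vehicle-treated libraries 1 to 3. For Tnfsf8 the values were 1.56, 1.39 and 1.93 across GC-treated libraries 1 to 3 and 2.84, 3.08 and 2.26 across vehicle-treated libraries 1 to 3. Both ratios separated the groups, at an exact two-sided permutation p of 0.1, the smallest that 3 against 3 libraries allow (0.5 adjusted over the 10 ratios), and the groups overlapped in the other 8 ratios. These ratios do not depend on the size factors, but they rest on the same ligand reads as the counts above. For Cd40lg the bordering libraries were again GC-treated 1 and vehicle-treated 3, whose Poisson intervals of Cd40lg overlapped.

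The immunoglobulin family receptors were abundant. Cd28, the receptor for CD80 and CD86, lies on chromosome 1 from 60755959 to 60812518, upstream of Ctla4 and Icos. Its counts were 17620, 14933 and 12855 across GC-treated libraries 1 to 3, against 18095, 18965 and 16049 across vehicle-treated libraries 1 to 3. GC-treated 1 lay among the vehicle-treated libraries, and the other GC-treated libraries lay below all of them. The log2 fold change was -0.23 (95% interval -0.51 to 0.042, limma's adjusted p = 0.62), with a range of -0.35 to -0.12 when each library was left out in turn.

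Icos, the inducible costimulator that binds ICOS ligand, lies on chromosome 1 from 61017086 to 61039479. Its counts were 6536, 6700 and 6489 across GC-treated libraries 1 to 3, against 8249, 6583 and 6664 across vehicle-treated libraries 1 to 3. Of the 6 libraries 5 lay close together and vehicle-treated 1 stood above them. The log2 fold change, -0.12 with a 95% interval of -0.35 to 0.12 (limma's adjusted p = 0.71), was -0.011 without vehicle-treated replicate 1.

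Cd226 encodes DNAM-1, an adhesion and activation receptor that binds PVR and nectin-2 and competes for them with TIGIT. Its counts were 11361, 13574 and 12554 across GC-treated libraries 1 to 3, against 12978, 10971 and 13424 across vehicle-treated libraries 1 to 3, and the groups overlapped throughout. The log2 fold change was 0.0062 with a 95% interval of -0.23 to 0.25 (adjusted p = 0.99 from limma), and its sign turned under 3 of the 16 alternatives. It overlaps Dok6 on the other strand, and strand is not kept by the library kit, so reads of the 2 genes cannot be told apart where they overlap. Its competitor Tigit had 28.8, 18.9 and 21.9 counts per 100 of Cd226 across GC-treated libraries 1 to 3 and 27.7, 39.7 and 23.8 across vehicle-treated libraries 1 to 3, which overlapped (exact two-sided permutation p = 0.3, adjusted p = 0.57).

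Among the TNF receptors, Tnfrsf1b encodes TNF receptor 2, the TNF receptor of activated T cells that lacks a death domain. Its gene spans 144938938 to 144973477 of chromosome 4, reverse strand, and like Icos and Tnfrsf9 it overlaps noncoding or unclassified annotations only. Its counts were 23998, 24016 and 21241 across GC-treated libraries 1 to 3, against 27029, 25043 and 26711 across vehicle-treated libraries 1 to 3. The groups did not overlap, but the difference was small, with a log2 fold change of -0.19 (standard error 0.083). Its limma p was 0.0497 unadjusted and 0.62 adjusted, and edgeR and DESeq2 gave unadjusted p of 0.052 and 0.057. The value ran from -0.22 without vehicle-treated replicate 2 to -0.13 without GC-treated replicate 3. Tnfrsf1a, the death domain receptor for the same ligand, had a log2 fold change of -0.26 and groups that did not overlap, and the count of Tnfrsf1a per 100 of Tnfrsf1b was 9.08 to 10.3 under the GC label and 9.31 to 11.4 under the vehicle label, which overlapped.

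Cd27, a receptor of naive and memory T cells for CD70, lies on chromosome 6 from 125209585 to 125213988 and shares part of its span with Vamp1, which runs the opposite way, so counts from that stretch are uncertain. Its counts were 11307, 10730 and 10058 across GC-treated libraries 1 to 3, against 11909, 12392 and 9540 across vehicle-treated libraries 1 to 3. Vehicle-treated 3 held the lowest count of all, below every GC-treated library. The log2 fold change was -0.069 (95% interval -0.32 to 0.18, adjusted p = 0.83 from limma). It was 0.0037 without vehicle-treated replicate 2.

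Tnfrsf9 encodes 4-1BB, an activation-induced receptor of CD8+ T cells, and lies on chromosome 4 from 150999019 to 151030559. Relative to its mean it had the narrowest range of the 10 genes over the libraries. Its counts were 9971, 9951 and 9357 across GC-treated libraries 1 to 3, against 10286, 10194 and 9880 across vehicle-treated libraries 1 to 3, which overlapped only through vehicle-treated 3. The log2 fold change was -0.053 (95% interval -0.23 to 0.12, adjusted p = 0.81 from limma).

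Tnfrsf4 (OX40) and Tnfrsf18 (GITR) are neighbours on chromosome 4, from 156098293 to 156101069 and from 156110621 to 156113352, with 9551 bases and no protein-coding gene between them. Both are known for their high levels on regulatory T cells and for induction on activation, and both overlap the noncoding gene Gm16008 on the other strand. Tnfrsf4 had counts of 1005, 882 and 1826 across GC-treated libraries 1 to 3, against 1061, 1384 and 1320 across vehicle-treated libraries 1 to 3, so that GC-treated 3 was the highest and GC-treated 2 the lowest of the 6. Its log2 fold change of -0.086 (95% interval -0.66 to 0.49, adjusted p = 0.91 from limma) ran from -0.40 without GC-treated replicate 3 to 0.12 without GC-treated replicate 2. Tnfrsf18 had counts of 1764, 2488 and 2715 across GC-treated libraries 1 to 3, against 1948, 2009 and 2128 across vehicle-treated libraries 1 to 3. GC-treated 2 and 3 lay above every vehicle-treated library and GC-treated 1 below all of them. Its log2 fold change was 0.17 (95% interval -0.19 to 0.53, adjusted p = 0.72 from limma), and it ran from 0.047 without GC-treated replicate 3 to 0.36 without GC-treated replicate 1. Foxp3, which defines regulatory T cells, had counts of 172, 407 and 524 across GC-treated libraries 1 to 3 and of 312, 212 and 595 across vehicle-treated libraries 1 to 3, and in both groups its highest library was replicate 3. Its part in the Tnfrsf18 values was not tested.

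**Figure D3:**
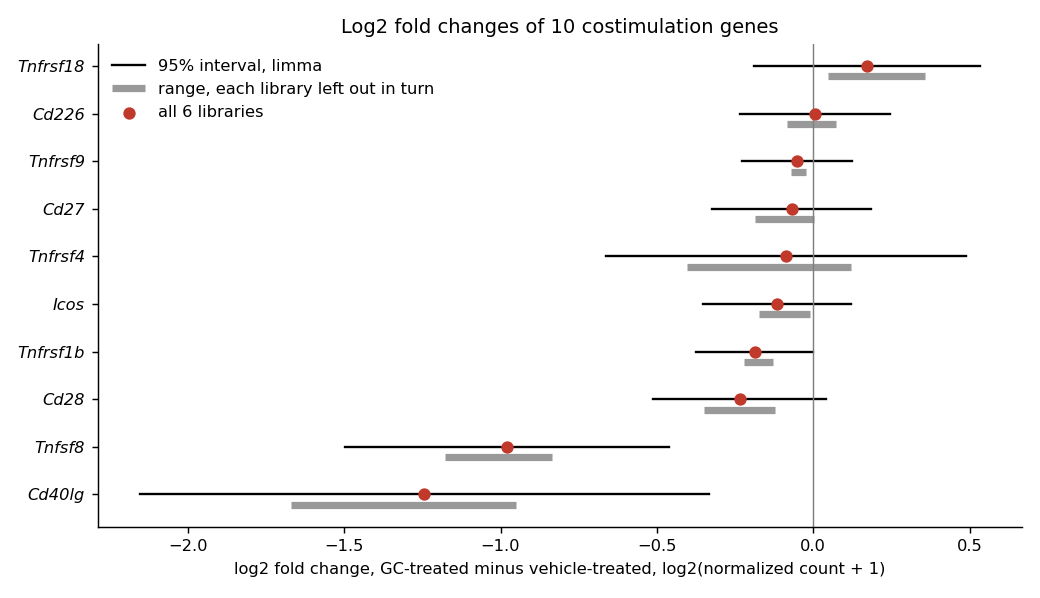
Log2 fold changes of the 10 genes, GC-treated minus vehicle-treated, on the log2(normalized count + 1) scale. Points use all 6 libraries, thin lines are limma's 95% intervals, and thick gray bars span the values with each library left out in turn. Cd40lg (-1.24) and Tnfsf8 (-0.98) lie apart from the other 8 genes, which range from -0.23 to 0.17.

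Promoter windows from RefSeq (build GRCm38.p6, 250 bases before to 50 after the start of the gene) were found for 6 of the 10 genes: Cd27, Tnfrsf1b, Tnfrsf9, Tnfrsf4, Tnfrsf18 and Tnfsf8. Those of the ligand and the receptor whose groups did not overlap are shown first, then that of the receptor with the highest log2 fold change and the window of Tnfrsf9 that begins at the later of its 2 annotated starts. Capitals mark matches, on either strand, to any of 5 motifs that were searched: the NFAT core GGAAA, AP-1 as TGANTCA, the glucocorticoid receptor half-site AGAACA, the TATA box core TATAA, and the NF-kB consensus. The windows lie at chr4:63861235-63861534 (Tnfsf8, reverse strand), chr4:145246821-145247120 (Tnfrsf1b, reverse strand), chr4:156026072-156026371 (Tnfrsf18, forward strand) and chr4:150927749-150928048 (Tnfrsf9, forward strand), on an older build than the gene positions above.
Tnfsf8: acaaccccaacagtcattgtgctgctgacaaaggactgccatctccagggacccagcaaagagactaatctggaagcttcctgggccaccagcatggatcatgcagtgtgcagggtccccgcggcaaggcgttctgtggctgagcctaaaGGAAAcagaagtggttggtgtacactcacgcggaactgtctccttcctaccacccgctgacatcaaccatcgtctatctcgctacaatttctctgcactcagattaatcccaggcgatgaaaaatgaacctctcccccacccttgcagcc
Tnfrsf1b: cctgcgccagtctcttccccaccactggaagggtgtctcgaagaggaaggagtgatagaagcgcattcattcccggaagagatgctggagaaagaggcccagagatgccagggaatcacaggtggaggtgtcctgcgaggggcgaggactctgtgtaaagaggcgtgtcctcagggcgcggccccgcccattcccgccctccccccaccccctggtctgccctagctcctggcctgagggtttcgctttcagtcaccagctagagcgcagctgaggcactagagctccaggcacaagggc
Tnfrsf18: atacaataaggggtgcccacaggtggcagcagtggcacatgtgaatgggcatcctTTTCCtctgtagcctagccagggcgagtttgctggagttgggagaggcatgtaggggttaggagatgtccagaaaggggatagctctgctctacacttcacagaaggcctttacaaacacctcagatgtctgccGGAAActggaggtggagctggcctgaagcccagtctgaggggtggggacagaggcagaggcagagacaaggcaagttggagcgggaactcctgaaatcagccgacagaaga
Tnfrsf9: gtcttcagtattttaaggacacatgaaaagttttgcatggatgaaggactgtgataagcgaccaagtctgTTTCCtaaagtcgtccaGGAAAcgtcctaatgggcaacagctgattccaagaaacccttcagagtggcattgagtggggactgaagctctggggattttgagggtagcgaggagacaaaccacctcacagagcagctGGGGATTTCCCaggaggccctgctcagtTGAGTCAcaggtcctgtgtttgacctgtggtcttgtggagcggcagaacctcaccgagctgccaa

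The Tnfsf8 window held 1 match, to the NFAT core, which begins 100 bases before the start and is a motif found in 61.3% of 32851 promoter windows of the same length. The Tnfrsf1b window, which is 62.7% G and C, held none of the 5 motifs. The Tnfrsf18 window held 2 NFAT cores. The Tnfrsf9 window shown held 3 NFAT cores and an AP-1 match that begins 15 bases before the start. It also held overlapping NF-kB matches that begin 43 and 42 bases before the start, with 1 of the cores inside them. The window of the earlier Tnfrsf9 start, not shown, held 2 NFAT cores and neither an AP-1 nor an NF-kB match. The AP-1 motif was in 7.81% and the NF-kB motif in 8.46% of all windows. Tnfrsf9, the only 1 of the 6 genes with 2 windows, was also the only 1 with either motif. The glucocorticoid receptor half-site, present in 19.0% of all windows, was in none of the 7 windows of the 6 genes, and the TATA box core, in 24.9%, was among them only in that of Tnfrsf4. These are matches of letters in short windows and not sites of binding.

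Divided by exon length in Gencode M39, the levels spanned a 61.4-fold range of means over the 6 libraries. Tnfrsf1b and Cd27 were the highest, at 4984 and 4690 normalized counts per kb, and the libraries of these neighbours in the order overlapped. Tnfrsf9 followed at 3652 per kb, below every library of Cd27 and above every library of Cd28. Cd28, Cd226 and Icos came next at 2682, 2504 and 2003 per kb, each overlapping its neighbour. Tnfrsf18 and Tnfrsf4, at 1427 and 908 per kb, overlapped each other, and Icos lay above Tnfrsf18 in every library. The ligands were far lower, with 63.7 ± 8.85 (GC label) and 128 ± 29.7 (vehicle label) per kb for Tnfsf8, and 50.6 ± 28.7 (GC label) and 112 ± 28.6 (vehicle label) per kb for Cd40lg (SD, n = 3 each).

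**Figure D4:**
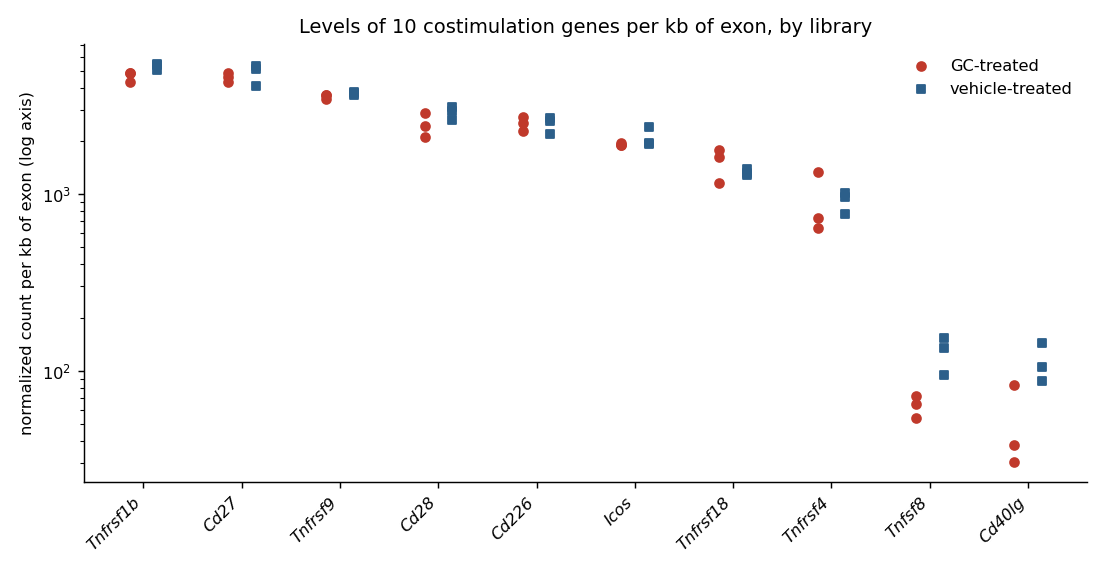
Normalized counts per kb of exon (log axis) of the 10 genes in each library, in order of the mean, with GC-treated libraries as circles left of vehicle-treated ones as squares. The 8 receptors lie between 643 and 5460 per kb, and both ligands below 153 per kb.

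Across libraries the 10 genes did not move as 1 group. Vehicle-treated 2 held the highest count of 4 genes (Cd28, Cd27, Cd40lg and Tnfsf8) and vehicle-treated 1 that of 3 (Icos, Tnfrsf9 and Tnfrsf1b). GC-treated 3 held the lowest count of 5 genes (Cd28, Icos, Tnfrsf9, Tnfrsf1b and Cd40lg) and at the same time the highest of Tnfrsf4 and Tnfrsf18. GC-treated 1, the library that lay near the vehicle-treated ones on the first principal component, held no highest count and 1 lowest, that of Tnfrsf18. Without it, 5 members had an unadjusted p under 0.05 from limma and still none an adjusted one, the smallest being 0.070 for Cd40lg, while over all genes 2395 then had an unadjusted p under 0.05 against 838 with every library.

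As a description, the genes whose levels over the 6 libraries were most like those of the 3 members with the smallest p were sought among 9993 genes. For Tnfsf8 they were Troap, Ccdc66 and Pdcd4 (Pearson's r of 0.99 each). For Cd40lg they were Ccnf, which encodes cyclin F, Uhrf2 and the replication factor Mcm10 (r of 0.999, 0.994 and 0.993). For Tnfrsf1b they were Jazf1, Klhl28 and Pgghg (0.993, 0.990 and 0.989). Each r rests on 6 points and is among the highest of 9993. In all, 17, 218 and 57 of the 9993 genes had an r over 0.95 with Tnfsf8, Cd40lg and Tnfrsf1b. The points share the labelled groups and the same libraries.

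The partners of the 10 genes were present in part. Of 13 ligands and counter-receptors, 12 are in the table and 10 were tested, none was called, and 1, Cd80, had an unadjusted p under 0.05. Cd80, a ligand of CD28 and CTLA-4, had counts of 93.5, 42.7 and 75.4 across GC-treated libraries 1 to 3, against 142, 362 and 102 across vehicle-treated libraries 1 to 3, which did not overlap (log2 fold change -1.36, adjusted p = 0.62 from limma). Vehicle-treated 2 held by far the highest count. Tnfsf4, the OX40 ligand, had the highest log2 fold change of the list, 0.87, with overlapping groups. Tnfrsf8 completes the 3 genes of the list with the smallest p. Cd40, the receptor of CD40 ligand, was at or below a count of 22.5 in every library and was not tested.

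Of 7 receptors that compete with or oppose the members, 5 had negative log2 fold changes and 2 had an unadjusted p under 0.05 (Tigit at -0.37 and Btla, an inhibitory receptor for HVEM, at -0.24). Ctla4, which takes CD80 and CD86 from CD28, was at -0.25, and its count per 100 of Cd28 was 19.3 to 25.8 in GC-treated and 20.4 to 24.2 in vehicle-treated libraries. Of 12 tested other costimulatory receptors, 0 had an unadjusted p under 0.05 in limma, with -0.27 for Cd244a, 0.19 for Cd2 and 0.22 for Klrk1, which encodes NKG2D. Of 16 other TNF superfamily genes, 1 did, Tnfsf13b, which encodes the B cell survival factor BAFF. It had counts of 79.7, 84.3 and 89.2 across GC-treated libraries 1 to 3, against 39.3, 25.9 and 48.0 across vehicle-treated libraries 1 to 3 (log2 fold change 1.18, adjusted p = 0.62 from limma), and these did not overlap. Tnfrsf1a and Fasl, the death ligand, followed at -0.26 and 0.37.

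Downstream, the 20 tested TRAF and noncanonical NF-kB genes centred near 0 (median log2 fold change 0.022). Traf3, which restrains noncanonical NF-kB, was at -0.37 with an unadjusted p under 0.05, and Traf2 and Chuk at 0.15 and 0.12. The 22 CD28 and ICOS signalling genes split into 11 negative and 11 positive values, with 2 at an unadjusted p under 0.05, Malt1 (-0.32), a paracaspase that acts upstream of NF-kB, and Pik3r1 (-0.40), a regulatory subunit of PI3K, followed by Pik3ca (-0.28). Of 25 factors that regulate these genes, 19 had negative values. Jun was at 0.59, Irf4, a factor induced by T cell receptor signals, at -0.52 and Rc3h2, a paralog of roquin that represses Icos RNA, at -0.48, each with an unadjusted p under 0.05. Over the 112 tested genes of these 7 lists, 0 were called by limma and 0 by edgeR or DESeq2, and 2 higher and 8 lower ones had an unadjusted p under 0.05, 8.93% in all against the 7.19% of all tested genes. The lists, like the members, were chosen with earlier results of these data known. Of 7 tested glucocorticoid response genes, 6 had negative values. Fkbp5 was at -0.59, Dusp1, a MAP kinase phosphatase, at 0.47 and Ddit4, an inhibitor of mTORC1, at -0.65. The median over the 10 members was -0.10 and over all tested genes -0.0079.

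**Figure D5:**
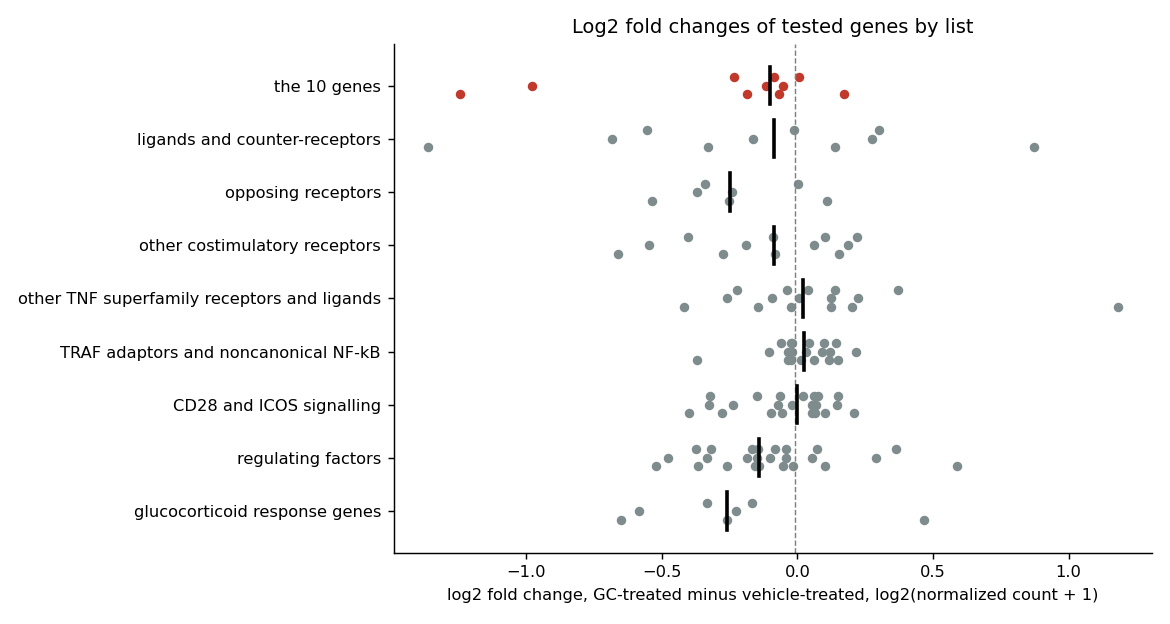
Log2 fold changes, GC-treated minus vehicle-treated, on the log2(normalized count + 1) scale, of the tested genes of each list. Points are genes, black bars are list medians and the dashed line is the median of all tested genes (-0.0079). The 10 genes (red) have a median of -0.10, and none of the points passed the test.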

How the data were processed

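Bulk RNA-Seq libraries of sorted donor CD8+ T cells, 3 labelled GC-treated and 3 labelled vehicle-treated, were compared. STAR alignment (GRCm39, Gencode) and gene counting by summarizeOverlaps were done by the authors, who deposited a normalized signal, the counts divided by 1 size factor per library. DESeq2 and bcl2fastq are also named in the submitters' notes, versions not given in the sources used here. In each library 100% of values lay within 0.001 of a whole multiple of its smallest value, and reads were recovered from these. The rule by which genes were left out of the table was not stated.

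Because the deposited values are already scaled, limma 3.58.1 with a mean-variance trend was run on log2(value + 1) of the 11649 genes that reached 10 in 3 or more libraries, adjusted by Benjamini-Hochberg over all of them and a threshold of 0.05. On the recovered reads, edgeR 4.0.16 (quasi-likelihood, TMM factors) and DESeq2 1.42.0 in R 4.3.3 served as alternatives, beside other filters, pseudocounts and scalings, a fit with no trend, the replicate block and each library left out. Intervals of read counts are exact Poisson ones. Positions and exon lengths are from Gencode M39 on GRCm39, where 13727 of 14051 symbols were found. The members and all gene lists were chosen with earlier results of these data known. All 10 members were named, with the 3 genes of smallest p of each list and the highest gene of each marker list. Foxp3, Cd4, Clec9a, Cd163, Mrc1, Hba-a2 and Cd8a were added after their values were seen. So were Flt3, Xcr1, Ccr7, Zbtb46, Adgre1, Cd14, C1qa, Fcgr1, Elane, Prtn3, Mmp8, Retnlg, Lcn2 and S100a8.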

Additional observations from a re-analysis of the deposited data

How the results depend on the processing

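Of 160 values, the log2 fold changes of 10 members under 16 alternatives, 154 kept their sign, all stayed on the same side of the threshold, and 6 turned their sign, in Cd27, Tnfrsf4 and Cd226. Scaling to Cd3d, Cd3e and Cd3g turned Cd226 to -0.054 and moved the median of all genes to -0.068. Leaving out each library gave -0.18 to 0.0037 for Cd27, -0.40 to 0.12 for Tnfrsf4 and -0.083 to 0.073 for Cd226. Called members numbered 0 in each direction under every alternative, and so did called genes of the 7 pathway lists. Over all genes limma called 0 higher and 0 lower. Limma without a trend called 1 lower and DESeq2 2 lower, and leaving out each library gave 0 to 2 higher and 0 to 43 lower, the highest values coming without GC-treated replicate 1. The cause was not tested.

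With the replicate block, limma called 0 genes higher and 0 lower, with 983 at an unadjusted p under 0.05 against 838 without it. Whether the numbers pair the samples is not stated in the labels. Libraries of the same number deviated from their group means with correlations of 0.063, -0.14 and 0.13. With 3 libraries per group these values cannot decide it. Depth limits Cd40lg most, whose lowest count rests on 61 reads.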
